A study of Mus musculus with 12 samples.

Results

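The complement genes described here are 9 of the 49315 genes counted in dorsal root ganglia (DRG): C1qa, C1qb, C1qc, C1ra, C1s1, C3, C4b, Cfi and Serping1. They encode the parts of the first complement component, the central components C3 and C4, and a pair of soluble regulators. They were chosen by name with their levels in the 2 genotypes of the study already known, so the difference between genotypes is given for them as a description and no test is read from it. All 9 passed the filter on low counts.

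The DRG came from mice aged 10 months, with 8 ganglia pooled per mouse and 1 library per mouse. The 6 Nf2 mice carried Postn-Cre(+) and Nf2 flox/flox, and the 6 DKO (double knockout) mice carried Fak1 flox/flox in addition, where Fak1 is the gene annotated as Ptk2. Each genotype had 3 mice labelled male and 3 labelled female. The floxed alleles are deleted where the periostin-driven Cre acts, which per the study is in Schwann cells and their precursors, so other cells of the ganglion keep them, and whole-gene counts do not resolve the deleted exons. Since the Nf2 deletion is shared by all 12 mice, the comparison addresses the added loss of Fak in ganglia that form schwannomas.

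Complement is a cascade of plasma and tissue proteins that tags material for removal. In its classical pathway, C1q binds a target, the proteases C1r and C1s bound to it cut C4 and C2, and the resulting enzyme cuts C3, whose fragments coat the target. C1 inhibitor, the product of Serping1, disables C1r and C1s, and factor I, the product of Cfi, degrades the C3b and C4b fragments. In nervous tissue C1q is made mainly by macrophages and microglia, while C4 and C3 are also made by glia and fibroblasts.

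Total counts were 21129191 to 41250329 per mouse. Mitochondrial genes took 1.99% to 4.45% of them in Nf2 and 2.15% to 5.60% in DKO mice. The deleted gene did not separate the groups at the level of whole-gene counts, with Ptk2 at 65.8 to 75.5 counts per 1000000 (CPM) in Nf2 and 46.5 to 76.0 CPM in DKO mice. The tissue label was borne out by its markers, as sensory neuron genes summed to 4976 to 6855 CPM in Nf2 and 5240 to 6166 CPM in DKO mice. The library labelled male, mouse 702 (Nf2), had 496 CPM of Xist and 0.525 CPM of Ddx3y, both inside the spans of mice labelled female. The edgeR differences by sex and their interaction with genotype are given with and without it. Means by sex and fits of 1 labelled sex alone keep it as a male. In libraries of whole ganglia, fewer cells of a type and less RNA per cell cannot be told apart.

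All 9 complement genes had a lower mean in DKO than in Nf2 mice. Among all 18295 genes tested, 49.0% had a log2 fold change below 0. For C1qb, Cfi and Serping1, every DKO mouse lay below every Nf2 mouse, a separation found in 1.04% of all genes. These 3 of the 9 also passed the edgeR threshold (adjusted p of 0.05), which 0.94% of all genes passed in either direction and 0.568% passed as lower in DKO. With DESeq2, 5 of the 9 passed, C1qc and C1ra in addition, against 4.54% of all genes. The median log2 fold change was -0.47 over the 9 genes and 0.005 over all genes tested. Without 1 mouse the edgeR count was 1 to 4, and it was 1, C1qb, without any 1 of Nf2 mice 702, 884, 918 and 1049 and DKO mice 885, 886, 914 and 917. Because the 9 genes were assembled with this contrast known, nothing is read from these counts.

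**Figure D1:**
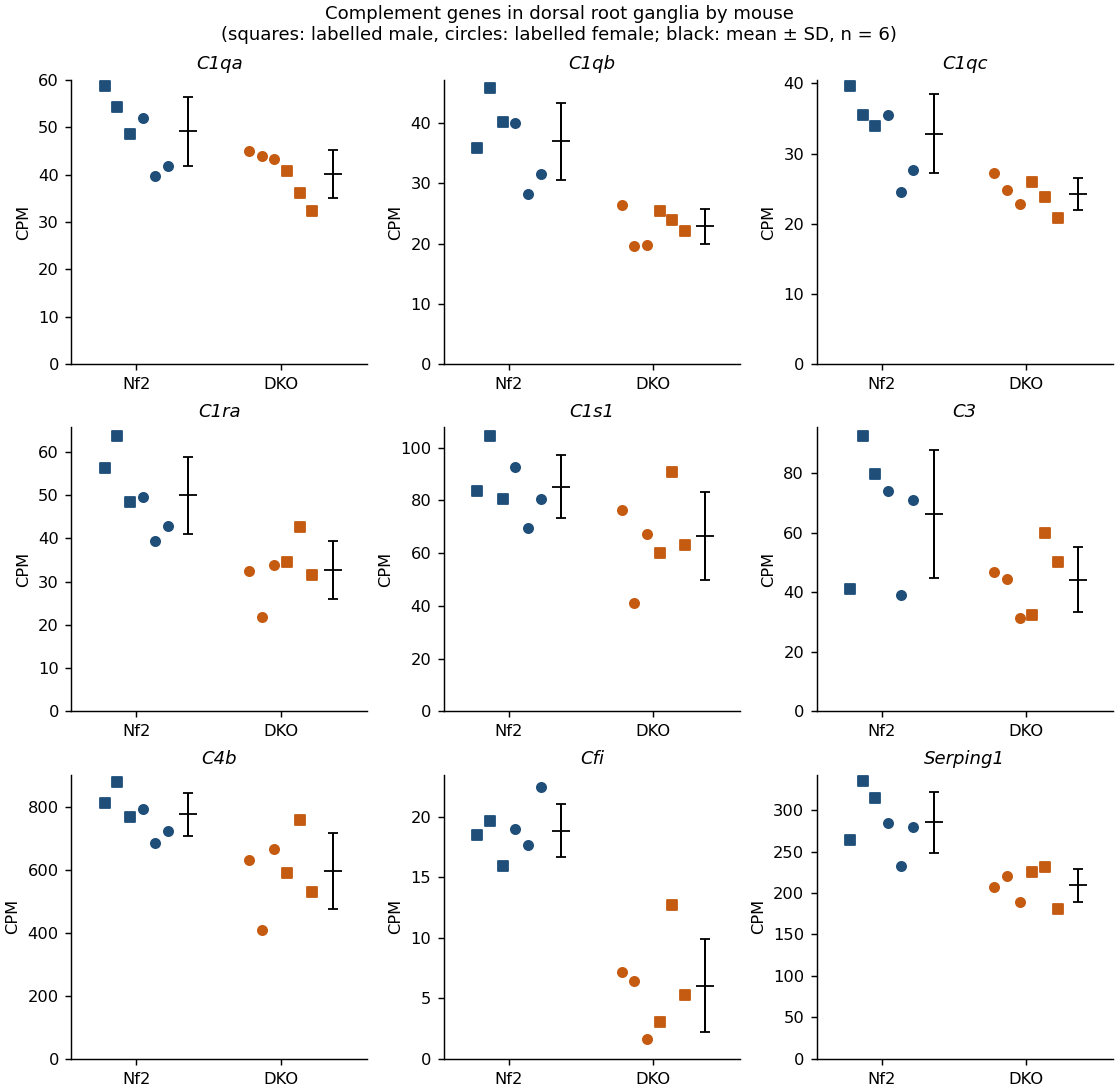
Each panel plots 1 complement gene, with CPM on a vertical axis that starts at 0, and each point is 1 of the 12 mice (squares labelled male, circles labelled female). Black lines and bars give the mean ± SD of 6 mice. The genotypes do not overlap for C1qb, Cfi and Serping1, and they overlap for the other 6 genes.

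C1q, the recognition unit of the classical pathway, is built from the A, B and C chains encoded by C1qa, C1qb and C1qc. The 3 genes lie within 18.7 kb of chromosome 4 (GRCm38), at 136895917 to 136898803 for C1qa, 136880129 to 136886187 for C1qb and 136889804 to 136893065 for C1qc, all on the minus strand. Each chain has a collagen-like stalk in which glycine recurs at a fixed step of 3 residues, and this shared feature is shown in the coding sequences of GENCODE M21. The longest run of triplets of codons that each start with GGN spans codons 62 to 109 of C1qa (16 triplets, chr4:136896565-136896708, exon 3 of 3). It spans codons 31 to 117 of C1qb (29 triplets, within chr4:136880700-136882217, in exons 2 and 3 of 3) and codons 68 to 115 of C1qc (16 triplets, chr4:136890439-136890582, exon 3 of 3). Among the other 6 genes the longest run was at most 3 triplets long. Runs of 4 or more triplets numbered 2 in C1qa, 1 in C1qb and 2 in C1qc. They held 26, 29 and 27 triplets in total, so the longest run is only part of those in C1qa and C1qc. The longest run of each chain is printed 5′ to 3′ on the coding strand, with the GGN codons in capitals:
C1qa: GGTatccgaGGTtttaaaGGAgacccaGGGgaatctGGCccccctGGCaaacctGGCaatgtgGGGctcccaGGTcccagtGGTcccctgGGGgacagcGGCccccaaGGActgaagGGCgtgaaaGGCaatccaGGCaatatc
C1qb: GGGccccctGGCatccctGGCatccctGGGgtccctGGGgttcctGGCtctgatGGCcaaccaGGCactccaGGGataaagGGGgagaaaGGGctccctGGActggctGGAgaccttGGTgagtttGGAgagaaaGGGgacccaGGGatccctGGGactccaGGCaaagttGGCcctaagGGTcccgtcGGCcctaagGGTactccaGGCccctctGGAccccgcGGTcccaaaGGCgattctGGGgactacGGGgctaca
C1qc: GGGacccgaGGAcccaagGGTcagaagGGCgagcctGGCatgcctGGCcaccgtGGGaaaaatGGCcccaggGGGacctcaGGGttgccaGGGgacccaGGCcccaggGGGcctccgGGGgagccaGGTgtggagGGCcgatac

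C1qb (ENSMUSG00000036905), the B chain, had a lowest, median and highest value of 28.3, 38.0 and 45.9 CPM in Nf2 mice. In DKO mice the same values were 19.5, 23.1 and 26.4 CPM. The highest DKO mouse thus lay below the lowest Nf2 mouse. The means were 37.0 ± 6.40 and 22.9 ± 2.86 CPM (SD, n = 6), and DKO mice had 61.9% of the Nf2 level. The log2 fold change was -0.71 ± 0.12 (SE), the lowest of the 3 chains.

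C1qc (ENSMUSG00000036896), the C chain, ranged from 24.5 to 39.6 CPM in Nf2 mice with a median of 34.8 CPM, and from 20.8 to 27.2 CPM in DKO mice with a median of 24.3 CPM. Of the 6 Nf2 mice, 5 lay above all DKO mice. DKO mice had 73.9% of the Nf2 level, with a log2 fold change of -0.46 ± 0.12 (SE). C1qa (ENSMUSG00000036887), the A chain, ranged from 39.7 to 58.7 CPM in Nf2 mice with a median of 50.3 CPM, and from 32.3 to 45.1 CPM in DKO mice with a median of 42.1 CPM. Here 4 Nf2 mice lay above all DKO mice and 2 DKO mice lay below all Nf2 mice. DKO mice had 81.9% of the Nf2 level, and the log2 fold change of -0.31 ± 0.12 (SE) was the nearest to 0 among the 9 genes.

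The chains assemble in equal numbers in the protein, and their transcripts were compared per kb of exon. That length is the union of annotated exons (1040, 1088 and 1931 bases for C1qa, C1qb and C1qc), so the ratios depend on it. The coding sequences have 735, 759 and 738 bases. Without division by length, the means of C1qb and C1qc were 37.0 and 32.8 CPM in Nf2 and 22.9 and 24.2 CPM in DKO mice. Per kb of exon, C1qa exceeded C1qb by a ratio of CPM of 1.41 ± 0.173 in Nf2 mice and 1.87 ± 0.363 in DKO mice (SD, n = 6), and 3 of 6 DKO mice exceeded the highest Nf2 ratio of 1.72. For C1qa to C1qc the ratio per kb was 2.80 ± 0.124 and 3.08 ± 0.269, and for C1qb to C1qc it was 2.01 ± 0.224 and 1.68 ± 0.181. The 3 ratios of the chains overlapped between the genotypes.

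Macrophages are the main local source of C1q, and their markers were examined beside it. Of 15 macrophage markers, 12 were lower and 3 higher in DKO mice, with a median log2 fold change of -0.36. None passed the edgeR threshold over all genes (0 of 15, with 10 at an unadjusted p under 0.05, which 14.9% of all genes reached). The markers summed to 300.6 to 445.8 CPM in Nf2 and 282.8 to 415.5 CPM in DKO mice, ranges that overlap, and none of them was at 0. Csf1r, the receptor that macrophages need to survive, had 68.8 CPM in Nf2 and 44.7 CPM in DKO mice. The 3 higher markers were Lyz2, Cd163 and Mertk. Lyz2, encoding lysozyme of macrophages and neutrophils, had 95.0 and 125.8 CPM. Cd163 had 1.91 ± 0.865 and 5.43 ± 5.58 CPM (SD), with a log2 fold change of 1.48. Mertk had 25.8 and 34.7 CPM, with a log2 fold change of 0.41. Cd163 and Mertk are among the 10 with an unadjusted p under 0.05, so these 10 lie in both directions. The part of macrophage content in the C1q difference was not tested.

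Variation among mice of the same genotype does not depend on the genotype contrast, and it was compared after centring log2(CPM + 1) on each genotype's mean. The comparison covered 8 pairs, and permutation p-values (100000 permutations of mice within genotype) were adjusted over the 8. C1qa and C1qc varied together (Pearson r 0.89, permutation p 0.00039, adjusted 0.0016; Spearman rho 0.83, permutation p 0.00284, adjusted 0.0114; 12 mice). The r was 0.98 within Nf2 and 0.76 within DKO mice, and 0.81 without the 2 mice farthest from the median. C1qb and C1qc had an r of 0.71 (permutation p 0.0245, adjusted 0.0490) and a rho of 0.71 (permutation p 0.0175, adjusted 0.0351), but the r was 0.53 without the 2 farthest mice, Nf2 mice 1048 and 702.

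C1qa and C1qb were less alike, with an r of 0.44 (permutation p 0.183, adjusted 0.243) and a rho of 0.43 (permutation p 0.195, adjusted 0.229). Within genotypes their r was 0.75 in Nf2 and -0.06 in DKO mice. The mean of the 3 chains followed the mean of the macrophage markers (r 0.86, permutation p 0.0004, adjusted 0.0016; rho 0.87, permutation p 0.00047, adjusted 0.00376). That r was 0.86 within Nf2 mice, 0.89 within DKO mice and 0.85 without the 2 farthest mice. Among 11945 genes with a mean of at least 5 CPM, the 5 most alike in centred level to the C1q mean were Aldh1a7, Tspan14, Mb21d2, Ctss and Gramd4, with r from 0.86 to 0.81. Ctss encodes cathepsin S, a protease of antigen-presenting cells, and is itself among the 15 macrophage markers. This list and those given below for the other genes are the top of 11945 genes over 12 mice. Among so many genes some high r arise by chance, and the lists were not tested, so they are descriptions only.

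**Figure D2:**
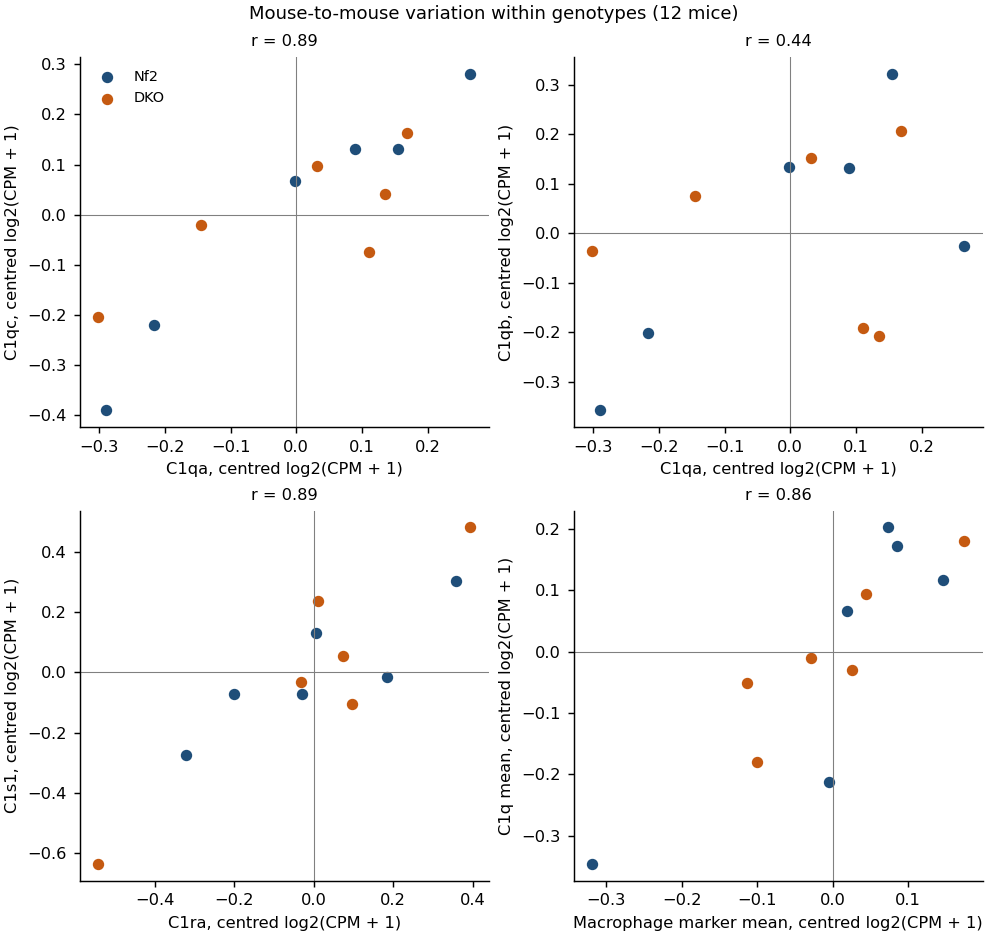
Each panel plots 2 levels as log2(CPM + 1) minus the mean of the mouse's own genotype, and each point is 1 of the 12 mice (blue Nf2, orange DKO). The points of C1qa against C1qc (r 0.89), C1ra against C1s1 (r 0.89) and the C1q mean against macrophage markers (r 0.86) lie along a rising line, and those of C1qa against C1qb (r 0.44) are more scattered.

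The stretches before C1qb and C1qc were read for known motifs, as these genes are neighbours that varied together. RefSeq promoter windows (GRCm38.p6) were given for C1qb, C1qc, C1ra, C1s1 and C3. The bases printed are those before the RefSeq start that lie in no GENCODE exon, on the minus strand, with matches to GAGGAA, the core read by the macrophage factor PU.1, on either strand in capitals. They cover chr4:136886201-136886450 for C1qb and chr4:136893066-136893164 for C1qc:
C1qb: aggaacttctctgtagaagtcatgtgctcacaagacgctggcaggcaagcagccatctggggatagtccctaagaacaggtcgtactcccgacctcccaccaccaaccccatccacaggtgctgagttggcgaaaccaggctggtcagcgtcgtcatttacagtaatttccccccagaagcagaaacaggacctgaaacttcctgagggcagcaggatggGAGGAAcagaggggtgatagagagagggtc
C1qc: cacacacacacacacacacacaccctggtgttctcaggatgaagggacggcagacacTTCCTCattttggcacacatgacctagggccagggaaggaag

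GAGGAA occurred 1 time before C1qb and 1 time before C1qc, where it is read on the other strand as TTCCTC. It was present in 23.3% of 32851 windows of 250 bases before RefSeq starts. The windows of C1ra, C1s1 and C3 held no match. Of 250 bases, 216 lay in GENCODE exons for C1ra, 0 for C3, and 0 or 38 for the windows of C1s1. For C1qb and C1qc the count was 0 and 151, so the windows are not alike. TTCNNNGAA (STAT factors, in 7.02% of windows), the interferon response element (interferon regulatory factors, 2.98%), the kB element (NF-kB, 0.356%) and TGANTCA (AP-1, 6.75%) were searched on both strands, and none matched in the windows of these 5 genes. A match describes letters only, and binding was not measured.

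C1ra and C1s1 encode the proteases C1r and C1s, which C1q carries. They lie 6.9 kb apart on chromosome 6, C1ra (ENSMUSG00000055172) at 124512405 to 124523443 on the plus strand and C1s1 (ENSMUSG00000038521) at 124530345 to 124542359 on the minus strand. C1ra had 39.3 to 63.5 CPM in Nf2 mice (median 48.9) and 21.8 to 42.5 CPM in DKO mice (median 33.2). In 5 of 6 DKO mice it lay below the lowest Nf2 mouse, and DKO mouse 915 overlapped. DKO mice had 65.6% of the Nf2 level, a log2 fold change of -0.63 ± 0.15 (SE).

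C1s1 had 69.7 to 104.5 CPM in Nf2 mice (median 81.9) and 41.3 to 90.6 CPM in DKO mice (median 65.2). DKO mouse 886 was the lowest at 41.3 CPM and DKO mouse 915 the highest at 90.6 CPM, above 4 of the 6 Nf2 mice. The log2 fold change was -0.38 ± 0.15 (SE), and it moved from -0.27 without mouse 886 to -0.49 without mouse 915. Per kb of exon, C1s1 exceeded C1ra by a ratio of 1.64 ± 0.144 in Nf2 mice and 1.93 ± 0.199 in DKO mice (SD, n = 6). In 5 of 6 DKO mice it exceeded the highest Nf2 ratio of 1.79.

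Within genotypes the proteases varied together, with an r of 0.89 (permutation p 0.00087, adjusted 0.00232) and a rho of 0.76 (permutation p 0.00844, adjusted 0.0225) over 12 mice. The r was 0.86 within Nf2 mice, 0.93 within DKO mice and 0.71 without mice 886 and 915. The genes whose centred levels were most like C1ra were Cd200, Nfkb1, Car5b, Rnd3 and Syde1 (r 0.96 to 0.91). For C1s1 they were Meox1, Rnd3, Ccl2, Cd200 and Nek6 (r 0.94 to 0.92). Cd200, a surface protein that restrains macrophages through its receptor, and Rnd3, a small GTP-binding protein that opposes actomyosin contraction, were in both lists.

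Both proteases have near-identical copies. Of the 100-base windows along the coding sequence of C1ra, 43.6% occurred unchanged in a C1rb transcript, and of those of C1s1, 11.3% occurred in a C1s2 transcript. The copies took few reads, with C1rb at 0.121 ± 0.0395 CPM in Nf2 and 0.187 ± 0.309 CPM in DKO mice, and C1s2 at 0.736 ± 0.148 and 0.784 ± 0.709 CPM. C1rb did not pass the filter on low counts, and C1s2 had a log2 fold change of 0.05 ± 0.42 (SE; edgeR adjusted p 0.972). The division of reads within each pair is uncertain, because the handling of reads with several matches was not given in the sources used here. If such reads were left out, C1ra could have lost a larger share than C1s1. The ratio of C1s1 to C1ra, the level of C1ra per kb and the low counts of the copies carry this uncertainty.

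C4b (ENSMUSG00000073418) encodes the mouse C4 that C1s cuts, and it is at chromosome 17, 34728380 to 34743882, on the minus strand. It had 685.8 to 880.2 CPM in Nf2 mice (median 781.6) and 408.6 to 759.4 CPM in DKO mice (median 611.8). Of the 6 DKO mice, 5 lay below the lowest Nf2 mouse, and mouse 915 was again the highest and 886 the lowest. The means were 778 ± 68.3 and 598 ± 120 CPM (SD, n = 6), and the log2 fold change was -0.40 ± 0.13 (SE).

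By length, C4b was the most abundant of the 9 transcripts in both genotypes, at 137 ± 12.0 CPM per kb of exon in Nf2 and 105 ± 21.1 CPM per kb in DKO mice. Its copy C4a, at 2.82 ± 0.608 and 2.97 ± 0.458 CPM, had a log2 fold change of 0.06 ± 0.17 (SE; edgeR adjusted p 0.911), and 16.4% of 100-base windows of the C4b coding sequence occurred unchanged in C4a transcripts. Across mice C4b followed the proteases, with a centred r of 0.94 with C1s1 and 0.92 with C1ra, given as a description without a test. The 5 genes most like it were Sorbs2, Nek6, Rnd3, Cd200 and Afap1l2 (r 0.97 to 0.94), of which Cd200 and Rnd3 were also in the lists of both proteases.

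The DKO mice at the extremes of C1ra, C1s1 and C4b were also at the extremes of nerve fibroblast markers. These summed to 1435 CPM in mouse 886 and 2367 CPM in mouse 915, the lowest and the highest of the 6 DKO mice. In Nf2 mice the sum was 1859 to 2334 CPM. Being at an extreme was not particular to this list. Endothelial markers had the same mice at the DKO extremes in reverse order, with 172.0 CPM in mouse 886 and 121.9 CPM in mouse 915. Mouse 886 was also the lowest DKO mouse for Schwann cell (8574 CPM) and sensory neuron markers (5240 CPM), and the highest for leptomeningeal markers (186.8 CPM). Of the 10 nerve fibroblast markers, 3 were lower and 7 higher in DKO mice, with a median log2 fold change of 0.16. Of them, 0 passed the edgeR threshold (3 at an unadjusted p under 0.05). The part of nerve fibroblasts or of any other cell type in the differences was not tested.

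C3 (ENSMUSG00000024164), the protein on which all complement pathways converge, is encoded at chromosome 17, 57203970 to 57228136, on the minus strand. Its level spread more than that of the other 8 genes in Nf2 mice, from 39.2 to 92.3 CPM with a median of 72.4 CPM (coefficient of variation 32.4%). In DKO mice it ranged from 31.3 to 60.1 CPM with a median of 45.7 CPM. The low Nf2 mice, 1048 and 649, lay within the DKO range, and the other 4 Nf2 mice lay above it. DKO mice had 66.8% of the Nf2 level, and the log2 fold change of -0.61 ± 0.22 (SE) moved from -0.49 without Nf2 mouse 702 to -0.73 without Nf2 mouse 1048.

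Within genotypes, C3 and C4b were not shown to vary together (r 0.20, permutation p 0.505, adjusted 0.505; rho 0.37, permutation p 0.229, adjusted 0.229; 12 mice). The genes most like C3 were Abcc1, Pank2, Gna13, Wdr41 and Gsdmd (r 0.96 to 0.94), none of which is shared with the lists of the other genes. Gsdmd encodes gasdermin D, the pore-forming protein of pyroptosis. The liver is the main source of plasma C3 and C4, and 6 hepatocyte markers summed to at most 0.477 CPM in any mouse.

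Serping1 (ENSMUSG00000023224), encoding C1 inhibitor, is at chromosome 2, 84765387 to 84775444, on the minus strand. It had 232.9, 282.0 and 334.8 CPM as the lowest, median and highest value in Nf2 mice and 180.9, 213.8 and 231.3 CPM in DKO mice. The groups did not overlap, although the highest DKO mouse, 915, and the lowest Nf2 mouse, 1048, lay close together. The means were 285 ± 36.2 and 209 ± 20.3 CPM (SD, n = 6). On the log2 scale the fold change was -0.47 ± 0.09 (SE), and DKO mice had 73.4% of the Nf2 level.

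The transcripts of C1 inhibitor and its target C1s can be set side by side. In CPM per kb of exon, Serping1 exceeded C1s1 by a ratio of 4.52 ± 0.410 in Nf2 mice and 4.49 ± 1.43 in DKO mice (SD, n = 6). The DKO mean rests on mouse 886, at 7.18, while 4 of 6 DKO mice lay below the lowest Nf2 ratio of 4.14. Serping1 and C4b had a centred r of 0.27 (permutation p 0.385, adjusted 0.439) and a rho of 0.38 (permutation p 0.221, adjusted 0.229). The r was 0.74 within Nf2 mice, 0.08 within DKO mice and 0.51 without mice 886 and 915. The genes most like Serping1 were Map2k6, Fuca1, Pcnt, Adgra2 and Spata13 (r 0.90 to 0.88).

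Cfi (ENSMUSG00000058952), encoding factor I, had the lowest log2 fold change of the 9 genes and the widest spread among DKO mice. It is at chromosome 3, 129835884 to 129875332, on the plus strand. Nf2 mouse 649 had 18.5 CPM, mouse 702 had 19.6, mouse 884 had 16.0, mouse 918 had 19.0, mouse 1048 had 17.7 and mouse 1049 had 22.4. Among DKO mice, 885 had 7.17 CPM, 886 had 6.47, 887 had 1.66, 914 had 3.03, 915 had 12.7 and 917 had 5.31. The genotypes did not overlap, and the coefficient of variation was 11.4% in Nf2 and 63.9% in DKO mice.

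The means of Cfi were 18.9 ± 2.15 and 6.06 ± 3.87 CPM (SD, n = 6), and the log2 fold change was -1.66 ± 0.34 (SE). It moved to -2.02 without DKO mouse 915 and to -1.48 without DKO mouse 887. The lowest value, in mouse 887, rested on 35 reads, and the others on 123 to 600 reads. The C4b and C3 transcripts, from whose products come the fragments that factor I degrades, were set against Cfi as a description. No test is read from it. RNA counts do not give the levels or activity of the proteins. In CPM per kb of exon, C4b exceeded Cfi by a ratio of 16.3 ± 2.16 in Nf2 mice and 59.0 ± 51.6 in DKO mice, and all 6 DKO mice lay above the highest Nf2 ratio of 18.8. The highest ratio of C4b to Cfi per kb was 156.9 in mouse 887, the mouse with the fewest Cfi reads. The ratio of C3 to Cfi per kb overlapped, at 0.95 to 2.15 in Nf2 and 2.04 to 8.16 in DKO mice. Here 5 of 6 DKO mice lay above the highest Nf2 ratio.

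Leptomeningeal markers, from the covering of the nerve roots, were examined beside Cfi. Of 10 such markers, 9 were higher and 1 lower in DKO mice, with a median log2 fold change of 1.03 and 0 past the edgeR threshold (9 at an unadjusted p under 0.05). They summed to 18.4 to 57.6 CPM in Nf2 and 40.8 to 186.8 CPM in DKO mice. Within genotypes Cfi and the mean of these markers had an r of 0.57 (permutation p 0.105, adjusted 0.169) and a rho of 0.47 (permutation p 0.161, adjusted 0.229), with -0.003 within Nf2 and 0.72 within DKO mice. The genes most like Cfi were Thbs1, Acsl3, Zfp189, Lactb2 and Angptl7 (r 0.91 to 0.87).

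**Figure D3:**
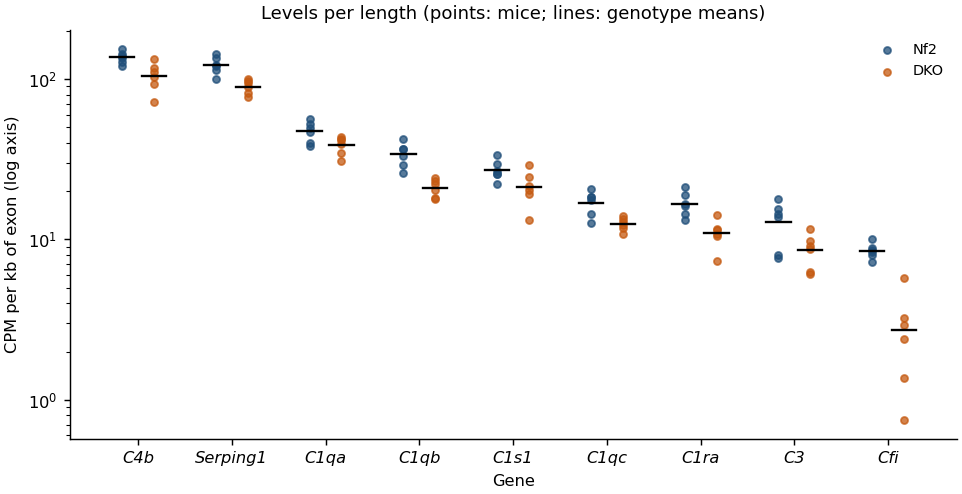
Levels of the 9 genes are plotted as CPM per kb of exon on a log axis, with 1 point per mouse (blue Nf2, orange DKO) and a line at each genotype mean. C4b and Serping1 are highest in both genotypes, and Cfi is lowest, with 1 DKO mouse at 0.746 CPM per kb.

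Per kb of exon, the order of the 9 levels in Nf2 mice was C4b, Serping1, C1qa, C1qb, C1s1, C1qc, C1ra, C3 and Cfi. Serping1 (123 ± 15.6 CPM per kb) and C1qa (47.3 ± 7.07 CPM per kb) did not overlap, nor did C1s1 (27.2 ± 3.82) and C1qc (17.0 ± 2.92). The other neighbours in the order overlapped over mice, and C1qc stood above C1ra in 3 of 6 mice. In DKO mice the order differed in 1 place, where C1s1 (13.2 to 29.0 CPM per kb) and C1qb (18.0 to 24.2 CPM per kb) were exchanged, a pair that did not differ beyond its spread. There Serping1 and C1qa, C1qa and C1s1, C1qb and C1qc, and C3 and Cfi did not overlap. Cfi was last in both, at 8.50 ± 0.970 and 2.73 ± 1.74 CPM per kb.

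Some mice deviated in many of the genes at once. Nf2 mice 702 and 918 were above their genotype mean for all 9 genes, and Nf2 mouse 1048 was below it for all 9. The median deviation of log2(CPM + 1) was 0.24 in mouse 702, 0.09 in 918 and -0.29 in 1048. Mouse 702 also had the highest sum of 11 interferon gamma response genes, at 1813 CPM. The other Nf2 mice had 648.9 to 1139 CPM and DKO mice had 566.1 to 1198 CPM. DKO mouse 886 was low in C1ra, C1s1 and C4b by 0.52 to 0.64, and above its mean in 5 of the other 6 genes.

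**Figure D4:**
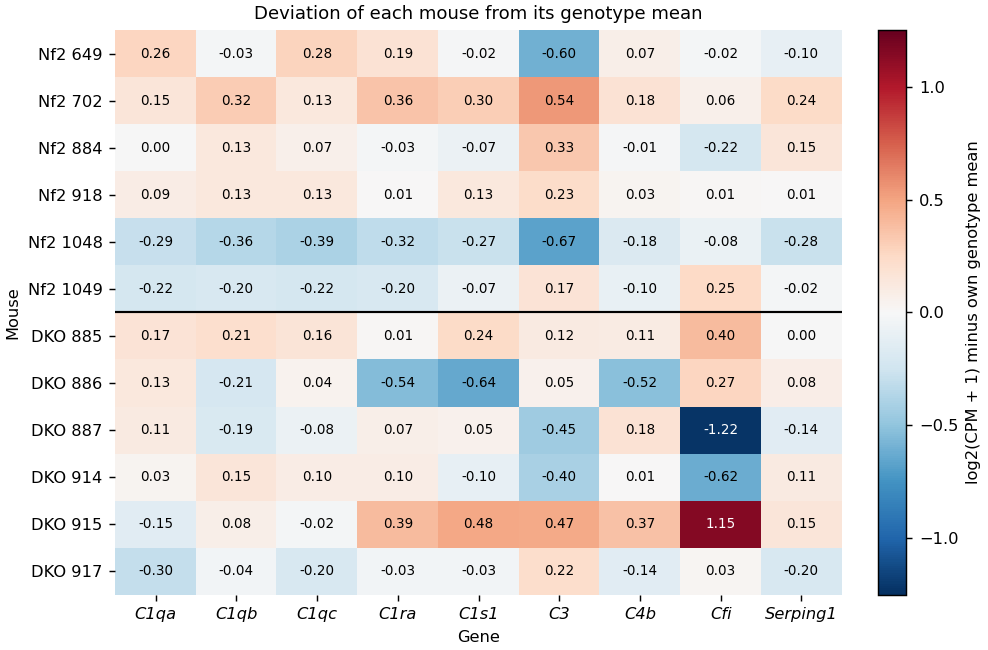
Each cell gives log2(CPM + 1) of 1 gene (columns) in 1 mouse (rows) minus the mean of the mouse's genotype, with red above and blue below it, and a black line between Nf2 and DKO mice. Nf2 mouse 1048 is blue in every column, DKO mouse 886 is blue in C1ra, C1s1 and C4b, and the strongest colours are Cfi in DKO mice 887 (-1.22) and 915 (1.15).

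Sex had not been used to assemble the genes, so it was tested. Labelled sex followed mouse numbers within each genotype. DKO females were 885 to 887 and DKO males 914 to 917, while Nf2 males were 649 to 884 and Nf2 females 918 to 1049. Within a genotype, a difference by sex cannot be told apart from one between these sets of numbers. Between mice labelled male and female, 0 of the 9 genes passed the edgeR threshold with genotype as a covariate (0.0164% of all genes passed), and DESeq2 also called 0. The log2 difference of males from females was 0.002 for C1qa, with -0.03 without mouse 702 and also below 0 with DESeq2, with relative log expression scaling and without a filter. For the other 8 genes it was 0.12 to 0.33, and above 0 without mouse 702 as well. The value of Cfi, 0.14 ± 0.34 (SE), fell below 0 without DKO mouse 915 (-0.19) and without DKO mouse 887 (-0.05). C1ra alone reached an unadjusted p under 0.05, which 2.91% of all genes did (0.33 ± 0.12, SE; edgeR p 0.0215, adjusted 1.00). Without mouse 702 its difference was 0.27 ± 0.13 (edgeR p 0.0592, adjusted 1.00).

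The interaction of genotype with sex passed the edgeR threshold for 0 of the 9 genes (0.0109% of all genes passed), and DESeq2 called 0 as well. At an unadjusted p under 0.05 there were C1qa and C1qc, where 4.78% of all genes lay. C1qa had 44.5 ± 6.53 CPM in Nf2 and 44.1 ± 0.917 CPM in DKO females, and 53.9 ± 5.05 CPM in Nf2 and 36.4 ± 4.33 CPM in DKO males (SD, n = 3 each). Its log2 fold change was -0.01 ± 0.13 (SE) in females alone and -0.61 ± 0.13 (SE) in males alone.

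The difference of these fold changes for C1qa was -0.60 ± 0.18 (SE; edgeR p 0.00612, adjusted 0.920). Without mouse 702 it was -0.60 ± 0.20 (edgeR p 0.0132, adjusted 0.772). For C1qc it was -0.45 ± 0.21 (edgeR p 0.0487, adjusted 0.920), and without mouse 702 it was -0.46 ± 0.23 (edgeR p 0.0653, adjusted 0.772). Neither held over all genes, so a dependence on sex was not shown. C1qb, by contrast, had 33.3 and 21.9 CPM in Nf2 and DKO females and 40.6 and 23.8 CPM in Nf2 and DKO males. The difference of its fold changes was -0.21 ± 0.22 (SE; edgeR adjusted p 0.924), and -0.11 ± 0.23 (edgeR adjusted p 0.892) without mouse 702.

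The rest of the pathway was taken from a list of 54 complement genes by role, of which 45 were not among the 9. Of these 45 genes, 29 passed the filter on low counts and 16 did not. None of the 29 was without overlap between the genotypes, against 1.95% of all genes, and none passed the edgeR threshold (0 genes, with 5 at an unadjusted p under 0.05, while 14.9% of all genes reached that p), and DESeq2 called 1. They had 14 log2 fold changes below and 15 above 0, with a median of 0.02, against 0.005 over all genes tested. The 9 genes had been taken out of the list with this contrast known, so the values of the 29 depend on that split. Over all 38 tested genes of the list, the 9 included, 23 log2 fold changes were below and 15 above 0, with a median of -0.15. In the C1 complex, the C1r-like gene C1rl (3.42 ± 0.375 CPM in Nf2 and 2.48 ± 0.871 CPM in DKO mice) had a log2 fold change of -0.48 ± 0.20 (SE; edgeR adjusted p 0.284).

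C2, the protease that joins C4b to cut C3, had 12.4 ± 3.41 and 11.1 ± 1.74 CPM and a log2 fold change of -0.18 ± 0.17 (SE; edgeR adjusted p 0.681). Masp1, a protease of the lectin pathway, was at 5.31 ± 0.789 and 5.28 ± 0.503 CPM (-0.03 ± 0.12). Cfp, encoding properdin, which steadies the C3-cutting enzyme of the alternative pathway, was at 6.80 ± 1.34 and 7.37 ± 2.06 CPM (0.10 ± 0.18). In the terminal pathway, whose products form the membrane attack complex, the highest level was that of C8g at 2.25 ± 0.470 and 2.59 ± 0.603 CPM (0.19 ± 0.19), and 3 of 7 genes passed the filter. Of 8 lectin pathway genes 3 passed it, and of 3 alternative pathway genes all 3.

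The other regulators had values on both sides of 0. Clu, encoding clusterin, which blocks the membrane attack complex, was at 289 ± 25.9 and 299 ± 38.5 CPM with a log2 fold change of 0.03 ± 0.09 (SE; edgeR adjusted p 0.919). Cd55, the membrane protein that speeds decay of the C3-cutting enzymes, was at 325 ± 58.2 and 340 ± 68.8 CPM (0.05 ± 0.15; edgeR adjusted p 0.913). Of the soluble regulators that were not among the 9, 1 had a fold change below 0 and 3 above. Of the membrane regulators, 2 were below and 3 above. Among the receptors, Itgb2, the shared chain of the C3 fragment receptors CR3 and CR4, was at 10.3 ± 3.76 and 11.0 ± 4.57 CPM (0.07 ± 0.28; edgeR adjusted p 0.939).

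The 5 genes with an unadjusted p under 0.05 were named after their values were seen. C1rl, Cpn1, C3ar1 and Itgam were lower and Vtn was higher in DKO mice. Vtn, encoding vitronectin, an inhibitor of the membrane attack complex and an integrin ligand, ranged from 9.07 to 21.2 CPM in Nf2 mice (median 17.4) and from 17.5 to 81.3 CPM in DKO mice (median 37.8). In 5 of 6 DKO mice it exceeded the highest Nf2 mouse. Its log2 fold change of 1.26 ± 0.30 (SE) came with an adjusted p of 0.0733 in edgeR. Leaving out DKO mouse 887 gave 1.40 and an edgeR adjusted p of 0.0272, DESeq2 gave 0.00169, and the other settings gave edgeR adjusted p-values of 0.0566 to 0.472.

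**Figure D5:**
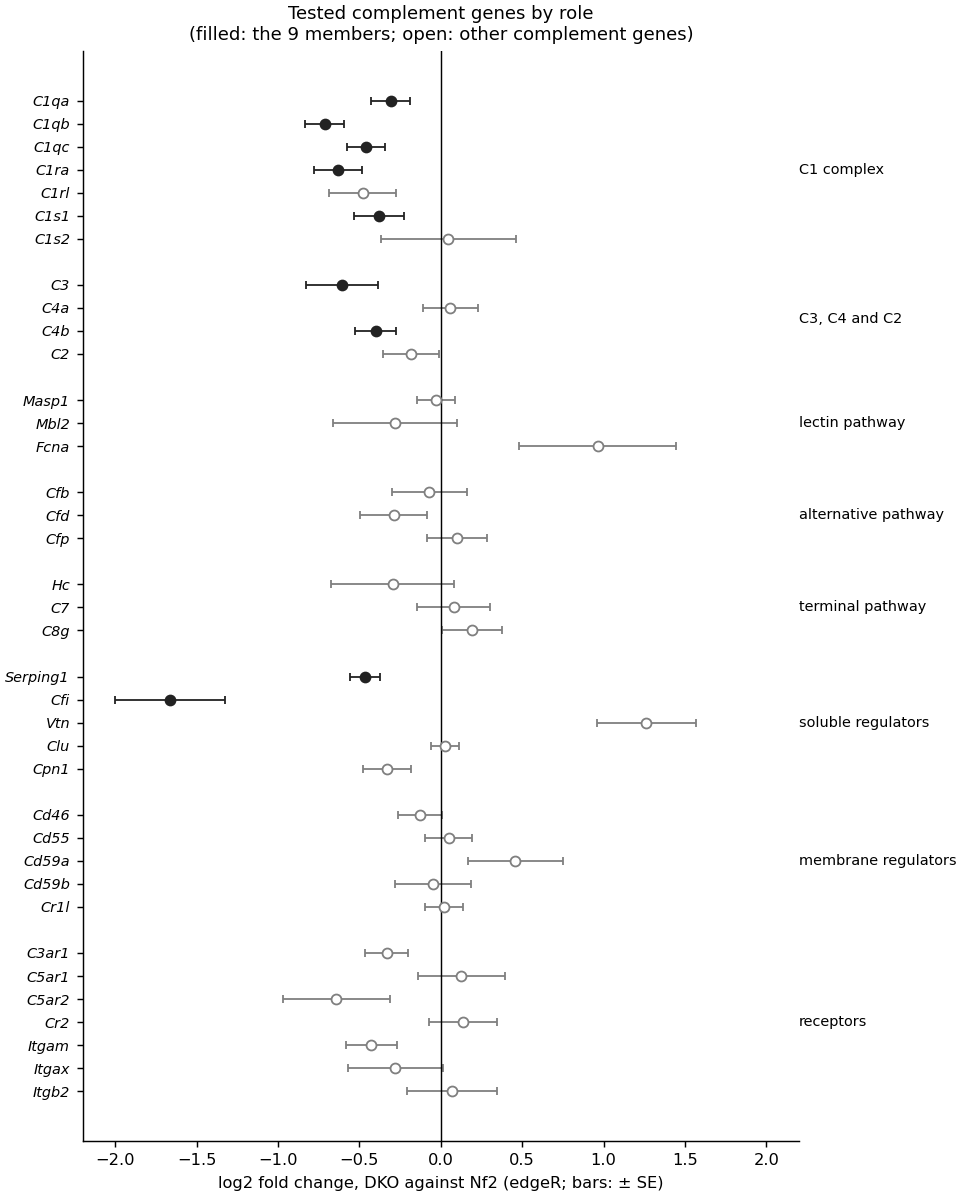
Log2 fold changes of 37 of the 38 tested complement genes in DKO against Nf2 mice are plotted by role, with bars of ± SE, as filled points for the 9 genes and open points for the others, 1 of which is not drawn. All filled points lie left of 0, from -1.66 for Cfi to -0.31 for C1qa, and the open points lie on both sides, with Vtn at 1.26.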

How the data were processed

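Poly(A)-selected RNA of 12 mouse DRG libraries (6 Nf2, 6 DKO) was analysed from 1 table of raw counts that the authors deposited, holding whole numbers of reads for each Ensembl gene in each library, without normalization. The submitters' processing notes name Trimmomatic 0.36, STAR 2.5.2b, featureCounts of Subread 1.5.2 and GRCm38. Options for strand and for reads with several matches were not given in the sources used here. Such reads can move counts between near-identical genes. The study plotted log2(CPM + 4) but stated no count test, so edgeR was used.

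CPM is the count divided by the library total and multiplied by 1000000. Genes were filtered by filterByExpr and libraries were scaled by TMM, the trimmed mean of log ratios, and the quasi-likelihood F test of edgeR 4.0.16 (R 4.3.3) was fitted on all 18295 genes that passed, with Benjamini-Hochberg adjustment and a threshold of 0.05. Sex was fitted with genotype as a covariate, and the interaction was fitted by labelled sex. Correlations used log2(CPM + 1) centred on genotype means. Alternatives were DESeq2 1.42.0, relative log expression scaling, no filter, a sex covariate, each labelled sex alone and each mouse left out. The fits were tested on simulated data. Coordinates and exon lengths are from GENCODE M21, where 48970 of 49315 genes were found. The exon length of a gene is the union of its annotated exons, which can exceed the length of the transcript present. Ratios and orders per kb depend on it. The total counts of 21129191 to 41250329 set the counting precision, which is lower for genes with few reads.

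The 9 genes, the complement list, the 15 marker lists (109 genes) and the tests were chosen with earlier results of these data known. Of the genes tested, those named are the 9, their near-identical copies, the gene of highest mean CPM in each role, other complement genes past the threshold and the 5 genes most alike to each member, after leaving out Gm and Rik symbols. The values of 1 complement gene that was tested are not reported here.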

Additional observations from a re-analysis of the deposited data

How the results depend on the processing

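The log2 fold changes of the 9 genes kept their sign under every alternative run, and 160 values moved by less than the SD between mice. The other 2 were C1qa in the mice labelled female alone (-0.01) and male alone (-0.61). Of the 12 fits that left out 1 mouse, the edgeR threshold was passed by C1qb in 12, Serping1 in 4, Cfi in 3, C1qc in 1, C1ra in 1 and the other 4 genes in 0, with 6 mice per group as the limit. Over all genes, 172 passed for genotype, against 81 to 217 without 1 mouse (81 without Nf2 mouse 918), 57 in females alone, 2 in males alone and 831 with DESeq2. The count of other complement genes was 0 to 1 without 1 mouse (Vtn without DKO mouse 887) and 1 with DESeq2. For sex, 3 genes passed, against 0 to 10 without 1 mouse (10 without mouse 702 and 0 without any other), 5 without a filter and 5 with DESeq2. For the interaction, 2 genes passed, against 2 to 6 without 1 mouse (6 without DKO mouse 914), 6 without a filter and 20 with DESeq2. The cause of these moves was not tested. The correlation of C1qa with C1qb moved from 0.44 to 0.22 and that of C4b with Serping1 from 0.27 to 0.51 without the 2 farthest mice. No paired analysis was run, because the sources used here give no litter or other link between mice of the 2 genotypes. Outlying mice were looked for in each of 18 sets of 6 values, with 0 found against 0.9 that chance would give.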

Other observations

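Marker lists of tissues that lie beside the ganglia are given as values, since they also differed between the libraries in which the 9 genes were measured. Skeletal muscle markers summed to 12.6 to 890 CPM in Nf2 and 17.9 to 293 CPM in DKO mice, and 9 of 9 had a log2 fold change below 0 (median -2.10, 0 past the edgeR threshold, 8 at an unadjusted p under 0.05). Neutrophil markers summed to 9.07 to 513 CPM in Nf2 and 14.6 to 430 CPM in DKO mice, with 6 of 6 above 0 (median 0.55, 0 past the edgeR threshold, 0 at an unadjusted p under 0.05). Schwann cell markers summed to 8887 to 11770 CPM in Nf2 and 8574 to 12320 CPM in DKO mice, with 3 lower and 5 higher (median 0.04). Erythroid, endothelial and B cell markers were above 0 in 5 of 5, 7 of 7 and 4 of 4 genes, and T cell markers below 0 in 4 of 4, each with 0 past the edgeR threshold (1, 1, 4 and 1 at an unadjusted p under 0.05). Interferon gamma response genes were below 0 in 11 of 11 (median -0.27), with 0 past the edgeR threshold and 0 at an unadjusted p under 0.05. Adipocyte markers were below 0 in 4 of 4 tested (median -0.21), and satellite glia and sensory neuron markers had medians of 0.002 and -0.02. The part of any of these lists in the complement differences was not tested.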
